A study of Mus musculus with 27 samples.

Results

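The BCL-2 family members described here are 10 genes, Bcl2, Bcl2l1, Mcl1, Bcl2a1a, Bcl2a1b, Bcl2a1d, Bcl2l11, Bbc3, Pmaip1 and Bid, picked by symbol from the 45070 genes of the table. The samples were bone marrow-derived macrophages (BMDM), primary cells grown from the bone marrow of wild type male C57/BL6 mice of 6 to 8 weeks. An exposure of 1 h to DMSO, a solvent for kinase inhibitors, came first in every group, the untreated one included. The cells were left untreated or received lipopolysaccharide (LPS, 10 ng/ml) or interleukin-4 (IL-4, 10 ng/ml) for 0.5, 1, 2 or 4 h, which gives 9 groups of 3 replicates and 27 libraries. Chromatin-associated RNA was sequenced, a fraction rich in transcripts that are still being made, so the values follow transcription more closely than the amount of mature mRNA or protein.

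BCL-2 family proteins decide whether the outer mitochondrial membrane is breached during apoptosis. The pro-survival proteins BCL-2, BCL-XL (gene Bcl2l1), MCL-1 and A1 (genes Bcl2a1a, Bcl2a1b and Bcl2a1d) hold the pore formers BAX and BAK in check. The BH3-only proteins BIM (Bcl2l11), PUMA (Bbc3), NOXA (Pmaip1) and BID bind them and release or activate the pore formers. MCL-1 and A1 are short-lived proteins, so their supply depends on continued synthesis. In macrophages, LPS acts through TLR4, NF-kB and MAP kinases, and IL-4 mainly through STAT6.

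All values below are normalised read counts as deposited, per library. Library sums ran from 2469770 to 2790980 without LPS (untreated and IL-4) and from 3571490 to 4058200 with LPS. The number of sequenced reads behind each library was not known, so no counting interval is given. The median tested gene stood 0.24, 0.30, 0.29 and 0.26 lower on the log2 scale than in untreated cells at the successive times of LPS, and between -0.02 and 0.02 from untreated under IL-4. When the libraries were instead set to equal totals, the medians under LPS were -0.73, -0.86, -0.91 and -0.84, and directions that turned with it are named beside the result. All 10 macrophage markers were tested, with sums per library of 10687 to 11824 untreated, 12034 to 20608 under LPS and 11233 to 14691 under IL-4. The marker sums of T cells, B cells, neutrophils, erythroid cells and mast cells were 0 to 34 in every group. Those of dendritic cells were 6 to 9 untreated, 7 to 103 under LPS and 11 to 24 under IL-4, those of fibroblasts 37 to 89, 33 to 218 and 28 to 209, and their part in the results was not tested. Cd3e, Cd3g, Ly6g, Xcr1, Hba-a1, Hbb-bs, Mcpt4 and Fcer1a were listed at 0 in all 27 libraries. In such bulk samples fewer cells of a type and less RNA per cell cannot be told apart.

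Of the 10 members, 9 reached 10 normalised read counts in 3 or more libraries and were tested, and Bcl2a1d was listed at 0 in all 27 libraries. Bcl2a1a reached 10 only in LPS libraries, and Pmaip1 only at 0.5 and 1 h of LPS and in the untreated library that read 12. Both thus entered the tests through the groups where they were high, and their calls as higher under LPS are given as a description. Over the LPS course, 9 of the 9 tested members changed (limma's moderated F test over the 4 times, adjusted p between 7.38e-13 for Bcl2l11 and 0.000821 for Bbc3), where 87.6% of all tested genes did. Over the IL-4 course, 6 of 9 changed (Bcl2, Bcl2l1, Bcl2a1b, Bcl2l11, Bbc3 and Pmaip1), where 40.3% of all tested genes did. The share under LPS was near the background, so what differed between members was the direction, size and time of the change. The IL-4 count was 7 with the replicate numbers as a block, where 53.3% of all tested genes changed. With no filter on low values it was 4, without Bcl2l1 and Pmaip1, where 15.9% of all tested genes changed. It fell to 2 without replicate 2 and to 2 without replicate 3, where 16.1% and 15.6% of all tested genes changed. The labels do not say whether replicates came from separate cultures or animals, so the p-values measure the spread between these samples, which may be technical.

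Under LPS, 6 members were higher and 1 was lower than untreated at 0.5 h, against 19.6% and 34.4% of all tested genes. At 1 h, 7 were higher and 1 lower, against 24.8% and 39.0%. At 2 h, 5 were higher and 1 lower, against 26.9% and 39.0%. At 4 h, 6 were higher and 1 lower, against 25.9% and 37.6%. With equal totals the shares of all tested genes called higher and lower were, in order of time, 11.7% and 52.2%, 15.5% and 55.7%, 17.0% and 57.4%, and 17.5% and 56.2%, and the members split 6 to 1, 7 to 1, 4 to 2 and 3 to 2. Rescaled on the median of ratios the shares were 25.8% and 27.1%, 31.0% and 32.2%, 32.1% and 32.6%, and 31.0% and 31.6%, and the members split 7 to 1, 8 to 0, 5 to 1 and 6 to 1. The 9 members are a small and chosen list that includes Bcl2a1a and Pmaip1, which passed the filter through LPS libraries. The counts are given as a description. Under IL-4, 3 members were higher and 1 lower at 0.5 h, against 8.15% and 8.14% of all tested genes. At 1 h, 3 were higher and 0 lower by limma, against 11.1% and 9.83%, with Pmaip1 (95% interval -1.98 to -0.14) the 1 member that was lower at an unadjusted p under 0.05. At 2 h, 2 were higher and 2 lower, against 14.3% and 13.2%. At 4 h, 1 was higher and 1 lower, against 13.4% and 12.5%. With the replicate block the members under IL-4 split 3 to 1, 3 to 2, 2 to 3 and 2 to 1 at the successive times. Without replicate 2 the counts called were 1, 2, 3 and 1, and without replicate 3 they were 1, 2, 1 and 1. The shares of all tested genes called were 5.56%, 9.39%, 13.6% and 11.9% without replicate 2. Without replicate 3 they were 6.32%, 9.48%, 13.4% and 11.4%. At 0.5 h of IL-4 the 1 member called in either run was Bcl2l11.

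**Figure D1:**
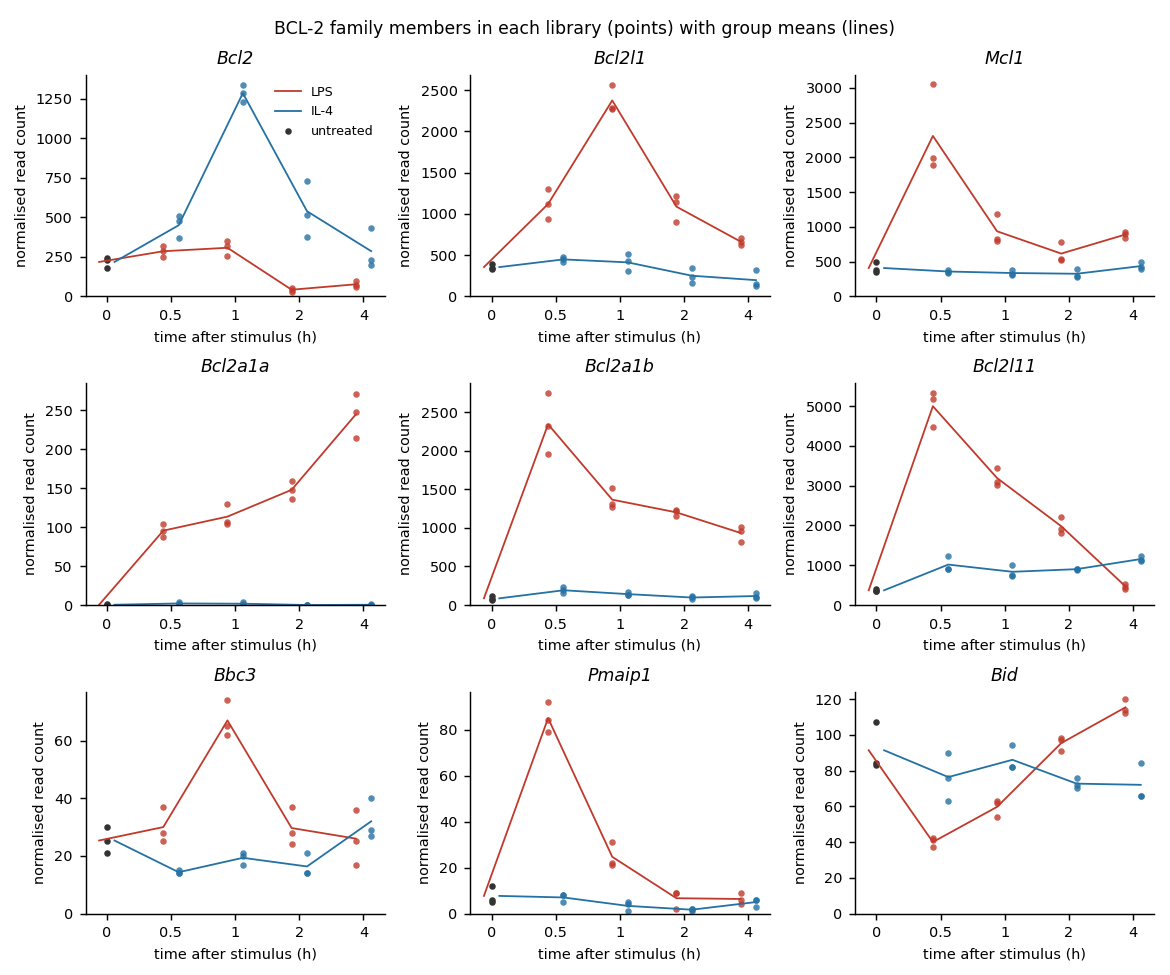
Normalised read count (vertical axis, from 0) of the 9 tested members in every library (points) against time after the stimulus in hours (horizontal axis, times evenly spaced), with group means joined by lines for LPS (red) and IL-4 (blue) and untreated libraries in black at 0. Bcl2 peaked at 1 h of IL-4 near 1286, Bcl2l1 at 1 h of LPS near 2376, and Mcl1, Bcl2a1b, Bcl2l11 and Pmaip1 were highest at 0.5 h of LPS.

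Bcl2, the founding pro-survival gene of the family, rose under IL-4 and fell under LPS. It read 180, 231 and 244 in the untreated libraries. Under IL-4 it read 370, 506 and 475 after 0.5 h, 1231, 1338 and 1288 after 1 h, 731, 374 and 512 after 2 h and 433, 197 and 229 after 4 h. The libraries at 0.5, 1 and 2 h all lay above the untreated ones, those at 1 h lay above every other group, and the groups overlapped again at 4 h. The rise reached 5.89-fold at 1 h (log2 fold change 2.56, SE 0.27, adjusted p = 1.04e-05). It was 2.06-fold at 0.5 h (log2 fold change 1.04, SE 0.27, adjusted p = 0.0174) and 2.47-fold at 2 h (log2 fold change 1.26, SE 0.27, adjusted p = 0.00328). The call at 0.5 h was lost without replicate 2 (adjusted p = 0.134) or 3 (adjusted p = 0.201), and that at 2 h without replicate 3 (adjusted p = 0.0705). With no filter on low values the 0.5 h call was lost too (adjusted p = 0.06935). Bcl2 fell by 1.31 on the log2 scale from 1 to 2 h of IL-4 (adjusted p = 0.00783), and at 4 h it was not called (log2 fold change 0.31, SE 0.27, adjusted p = 0.459, 95% interval -0.27 to 0.90).

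Under LPS, Bcl2 read 289, 249 and 320 after 0.5 h and 258, 317 and 349 after 1 h, then 54, 31 and 43 after 2 h and 98, 71 and 62 after 4 h. All 6 libraries of the first hour lay above the untreated ones, and all 6 of the later times lay below them. At 2 h the level was 5.12-fold lower than untreated (log2 fold change -2.35, SE 0.21, adjusted p = 1.17e-07), and at 4 h 2.84-fold lower (log2 fold change -1.51, SE 0.21, adjusted p = 1.65e-05). The small early difference was not called at 0.5 h (0.39, adjusted p = 0.137) or at 1 h (0.50, adjusted p = 0.0547). With median-of-ratios rescaling it was called at both times (0.65 and 0.76, adjusted p = 0.0293 and 0.00978), and with equal totals it turned to -0.12 and -0.08. The 1 h value also passed with the replicate numbers as a block (adjusted p = 0.035), with a pseudocount of 8 (adjusted p = 0.0419) and without replicate 1 (adjusted p = 0.0204). Between 1 and 2 h Bcl2 fell 7.22-fold (log2 difference -2.85, adjusted p = 3.75e-08), and between 2 and 4 h it rose 1.80-fold (log2 difference 0.85, adjusted p = 0.0096).

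Bcl2 spans 176115 bases (chr1:106538176-106714290, minus strand, GRCm38.p6), nearly all of it intron. The non-coding gene Gm37053 lies inside it on the same strand (chr1:106603763-106614945). Gm37053 read 16.0 ± 2.65 in untreated libraries, 64.3 ± 15.9 at 1 h of IL-4 and 2.33 ± 1.53 at 2 h of LPS (SD, n = 3). Its values followed those of Bcl2 over the 27 libraries (Pearson's r = 0.931, a description over libraries that share their depth and this locus). Whether the counts separated both genes was not given in the sources used here.

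Bcl2l1, which encodes BCL-XL, rose under LPS with a peak at 1 h. It read 391, 349 and 328 in untreated libraries, and 945, 1297 and 1120 after 0.5 h, 2568, 2273 and 2288 after 1 h, 901, 1151 and 1215 after 2 h, and 661, 712 and 623 after 4 h of LPS. Every LPS library lay above every untreated library, and the 1 h libraries lay above all others. The rise was 3.15-fold at 0.5 h (log2 fold change 1.64, SE 0.14, adjusted p = 1.05e-07), 6.68-fold at 1 h (log2 fold change 2.74, SE 0.14, adjusted p = 1.93e-10) and 3.06-fold at 2 h (log2 fold change 1.60, SE 0.14, adjusted p = 5.29e-08). At 4 h it was 1.87-fold (log2 fold change 0.90, SE 0.14, adjusted p = 3.08e-05), and with equal totals that call was lost (log2 fold change 0.29, adjusted p = 0.0675). The step up from 0.5 to 1 h and the step down from 1 to 2 h were of like size (log2 differences 1.09 and -1.13, adjusted p = 9.32e-06 and 5.6e-06).

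Under IL-4, Bcl2l1 read 479, 456 and 413 after 0.5 h, 512, 425 and 304 after 1 h, 348, 168 and 239 after 2 h and 326, 122 and 146 after 4 h. The 3 libraries at 4 h lay below the untreated ones by a narrow margin in replicate 1. The level at 4 h was 1.80-fold lower (log2 fold change -0.98, SE 0.32, adjusted p = 0.0396), and the call was lost without replicate 2 (adjusted p = 0.311) or 3 (adjusted p = 0.283). That call was also lost with no filter on low values (adjusted p = 0.126) and without the mean-variance trend (adjusted p = 0.0561). At the other times the differences were not called, with values of 0.34 (95% interval -0.36 to 1.03) at 0.5 h, 0.19 (95% interval -0.51 to 0.88) at 1 h and -0.56 (95% interval -1.25 to 0.14) at 2 h. Without replicate 1 the 2 h value was called (-0.75, adjusted p = 0.0108). Bcl2l1 lies at chr2:152758732-152831728 on the minus strand and overlaps Cox4i2 and the pseudogene Gm32211 on the other strand, neither of which read above 13 in any library.

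Mcl1, which encodes the short-lived MCL-1, had its peak at 0.5 h of LPS. It read 491, 383 and 352 in untreated libraries and 3051, 1984 and 1886 after 0.5 h, 1188, 801 and 822 after 1 h, 785, 529 and 535 after 2 h, and 928, 843 and 900 after 4 h of LPS. No LPS library overlapped the untreated ones. The rise was 5.65-fold at 0.5 h (log2 fold change 2.47, SE 0.21, adjusted p = 1.22e-07), and the level then fell 2.46-fold by 1 h (log2 difference -1.29, adjusted p = 0.00011). It remained higher at 1 h (log2 fold change 1.19, SE 0.21, adjusted p = 0.000147) and was 2.18-fold higher at 4 h (log2 fold change 1.14, SE 0.21, adjusted p = 0.0002). At 2 h it was 1.51-fold higher (log2 fold change 0.58, SE 0.21, adjusted p = 0.0227), but -0.08 on the log2 scale with equal totals (adjusted p = 0.74), and the call was lost without replicate 2 (adjusted p = 0.0968) or 3 (adjusted p = 0.113). That call was also lost with no filter on low values (adjusted p = 0.0778). Relative to the median gene the 2 h difference was 0.87. In all 4 LPS groups and in the untreated group, replicate 1 was the highest of the 3 libraries.

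Under IL-4, Mcl1 ranged from 284 to 495 over the 12 libraries and overlapped the untreated libraries at every time. The course test did not pass (adjusted p = 0.118), and the log2 fold changes ran from -0.33 at 2 h (95% interval -0.65 to -0.01) to 0.10 at 4 h (95% interval -0.22 to 0.42). With the replicate numbers as a block, Mcl1 was lower at 1 h (log2 fold change -0.27, adjusted p = 0.0149) and at 2 h (adjusted p = 0.00346), and the course test passed (adjusted p = 0.00104). The 2 h value was also called without replicate 1 (adjusted p = 0.00529). Mcl1 lies at chr3:95658721-95663179 on the plus strand and, at 4459 bases, is the shortest of the 10 genes.

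The A1 genes lie close together on mouse chromosome 9, as near-identical copies, and their products bind BH3-only proteins such as BIM. Bcl2a1d lies at chr9:88723288-88731850 on the minus strand, Bcl2a1a at chr9:88956920-88962416 and Bcl2a1b at chr9:89199273-89207838, both on the plus strand. Their annotated transcripts (GENCODE M21) were 98.2% identical between Bcl2a1a and Bcl2a1b, 98.8% between Bcl2a1a and Bcl2a1d and 99.1% between Bcl2a1b and Bcl2a1d. Of the 76-base stretches of each transcript, the read length of the study, 45.3% were found only in Bcl2a1a, 57.0% only in Bcl2a1b and 32.7% only in Bcl2a1d among the 4 annotated A1 copies. Reads that map to several places were removed by the authors, so each level below rests on the unique parts and is uncertain in its split between copies. Their introns were not compared.

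The 250 bases before the start of each A1 gene (RefSeq promoter table, GRCm38.p6) are printed because they show how alike the copies are upstream and where they carry the 1 motif found there. Capitals mark matches to TGANTCA, with N for any base, a loose AP-1 pattern that was searched on both strands. Each A1 match read TGAATCA, with A at the free base. The pattern TGANTCA was found in 6.75% of the 32851 windows of the same length.
Bcl2a1a, chr9:88956670-88956919, plus strand: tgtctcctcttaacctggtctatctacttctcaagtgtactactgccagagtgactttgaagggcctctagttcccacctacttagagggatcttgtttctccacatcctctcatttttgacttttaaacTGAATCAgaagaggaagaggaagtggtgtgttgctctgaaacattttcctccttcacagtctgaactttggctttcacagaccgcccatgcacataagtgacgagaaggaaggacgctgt
Bcl2a1b, chr9:89199023-89199272, plus strand: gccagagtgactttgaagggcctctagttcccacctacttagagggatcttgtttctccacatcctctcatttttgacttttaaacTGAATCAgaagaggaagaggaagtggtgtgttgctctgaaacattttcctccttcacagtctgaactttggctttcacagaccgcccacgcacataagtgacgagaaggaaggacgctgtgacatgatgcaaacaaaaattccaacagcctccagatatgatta
Bcl2a1d, chr9:88731851-88732100, minus strand: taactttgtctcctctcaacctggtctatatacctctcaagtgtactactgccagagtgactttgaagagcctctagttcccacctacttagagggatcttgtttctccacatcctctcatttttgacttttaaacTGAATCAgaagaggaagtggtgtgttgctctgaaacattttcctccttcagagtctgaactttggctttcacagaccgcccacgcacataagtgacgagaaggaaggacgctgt
The match starts 120 bases before the annotated start in Bcl2a1a, 164 in Bcl2a1b and 114 in Bcl2a1d. Where the windows align they were 99.5% identical between Bcl2a1a and Bcl2a1b (206 aligned bases), 97.5% between Bcl2a1a and Bcl2a1d (244) and 99.0% between Bcl2a1b and Bcl2a1d (200). None of the A1 windows held the kappaB consensus (found in 3.9% of all windows) in these letters. A match is a description of the letters and not of a bound site.

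Bcl2a1b had the largest LPS fold change of the members with untreated libraries above 1. It read 112, 69 and 78 in untreated libraries and 2743, 2322 and 1962 after 0.5 h, 1520, 1268 and 1308 after 1 h, 1229, 1222 and 1151 after 2 h, and 1016, 964 and 822 after 4 h of LPS. All LPS libraries lay far above the untreated ones, and no library at 0.5 h overlapped a later time. The rise was 27.1-fold at 0.5 h (log2 fold change 4.76, SE 0.16, adjusted p = 3.66e-12) and was still 10.8-fold at 4 h (log2 fold change 3.45, SE 0.16, adjusted p = 5.87e-11). From 0.5 to 4 h the level fell 2.51-fold (log2 difference -1.32, adjusted p = 4.26e-06). Under IL-4 it read 229, 151 and 193 after 0.5 h, above all untreated libraries, and 165, 134 and 125 after 1 h, 116, 99 and 76 after 2 h and 152, 107 and 90 after 4 h. It was 2.21-fold higher at 0.5 h (log2 fold change 1.15, SE 0.23, adjusted p = 0.00362) and 1.64-fold at 1 h (log2 fold change 0.73, SE 0.23, adjusted p = 0.0416). Both IL-4 calls were lost without replicate 2 (adjusted p = 0.0903 and 0.332) or without replicate 3 (adjusted p = 0.0848 and 0.184). The 1 h call was also lost with equal totals (adjusted p = 0.0849) and with median-of-ratios rescaling (adjusted p = 0.0685). The same held with no filter on low values (adjusted p = 0.1255) and without the mean-variance trend (adjusted p = 0.0576). At 4 h of IL-4 the value was 0.42 (adjusted p = 0.221, and 0.0181 with the replicate block).

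Bcl2a1a was near 0 without LPS and climbed throughout the LPS course. It read 0, 1 and 0 in untreated libraries, 0 to 4 in the 12 IL-4 libraries, and 104, 95 and 87 after 0.5 h, 129, 107 and 104 after 1 h, 148, 159 and 136 after 2 h, and 271, 248 and 214 after 4 h of LPS. The lowest LPS library stood at 87, so no LPS library overlapped the untreated or IL-4 ones. The fitted log2 fold changes of 6.25 at 0.5 h to 7.60 at 4 h (adjusted p = 9.17e-12 and 6.53e-13) depend on the pseudocount, and were 3.63 to 4.92 with a pseudocount of 8. From 0.5 to 4 h the level rose 2.56-fold (log2 difference 1.35, adjusted p = 0.00013), while Bcl2a1b fell over the same interval. Over the IL-4 course it was not called (adjusted p = 0.17).

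As a share of Bcl2a1b in the same library, Bcl2a1a went from 4.11% ± 0.32 at 0.5 h of LPS to 8.29% ± 0.30 at 1 h, 12.3% ± 0.64 at 2 h and 26.1% ± 0.48 at 4 h (SD, n = 3). The ranges of the 4 times did not overlap. The share is a ratio within a library, so it does not depend on how the libraries were scaled, but it does depend on how reads were split between the copies. With the 3 copies summed, the A1 locus read 112, 70 and 78 in untreated libraries and 2847, 2417 and 2049 after 0.5 h of LPS, a 28.1-fold rise (log2 fold change 4.81, SE 0.16, adjusted p = 2.81e-12). At 4 h of LPS the sum was 13.6-fold higher than untreated (log2 fold change 3.77, SE 0.16, adjusted p = 1.91e-11).

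**Figure D2:**
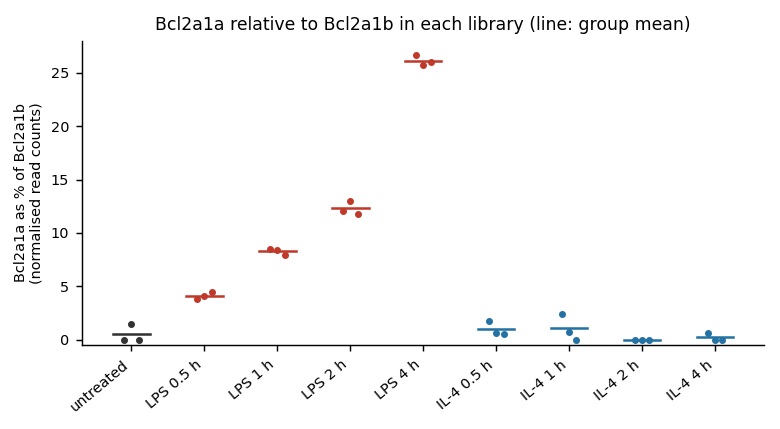
Bcl2a1a as a percent of Bcl2a1b (vertical axis) in each library (points) of the 9 groups (horizontal axis), with group means as lines for untreated (black), LPS (red) and IL-4 (blue). The share climbed from 4.11% at 0.5 h to 26.1% at 4 h of LPS and stayed under 2.5% in every untreated and IL-4 library.

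Bcl2l11, which encodes BIM, had the highest mean of the BH3-only genes per kilobase of gene span in every group and rose under both stimuli. Per kilobase of annotated cDNA it overlapped Bid in untreated cells and at 4 h of LPS. It read 399, 355 and 357 in untreated libraries and 4480, 5333 and 5187 after 0.5 h, 3455, 3095 and 3030 after 1 h, 1819, 1903 and 2222 after 2 h, and 534, 461 and 414 after 4 h of LPS. The groups did not overlap from one time to the next and all lay above the untreated libraries. The rise was 13.5-fold at 0.5 h (log2 fold change 3.75, SE 0.12, adjusted p = 1.58e-12), 8.62-fold at 1 h (log2 fold change 3.10, SE 0.12, adjusted p = 1.01e-11) and 5.35-fold at 2 h (log2 fold change 2.41, SE 0.12, adjusted p = 1.08e-10). Between 2 and 4 h the level fell 4.22-fold (log2 difference -2.08, adjusted p = 2.13e-08). At 4 h it was 1.27-fold higher than untreated (log2 fold change 0.34, SE 0.12, adjusted p = 0.0229), but -0.27 on the log2 scale with equal totals (adjusted p = 0.0496), and the call was lost without replicate 2 (adjusted p = 0.19) or 3 (adjusted p = 0.0613).

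Under IL-4, Bcl2l11 read 1232, 900 and 918 after 0.5 h, 1003, 739 and 764 after 1 h, 915, 875 and 915 after 2 h and 1143, 1098 and 1227 after 4 h. All 12 libraries lay above the untreated ones. The rise was 2.75-fold at 0.5 h (log2 fold change 1.44, SE 0.13, adjusted p = 3.52e-06), 2.26-fold at 1 h, 2.43-fold at 2 h and 3.12-fold at 4 h (log2 fold change 1.64, SE 0.13, adjusted p = 6.64e-07). It was the 1 member called at all 4 times of IL-4. The step from 1 to 4 h was called (log2 difference 0.48, adjusted p = 0.0187). Bcl2l11 lies at chr2:128126038-128162547 on the plus strand and overlaps no other gene of the table.

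Bbc3, which encodes PUMA, was a low-level gene with a brief response. It read 25, 30 and 21 in untreated libraries, and 37, 25 and 28 after 0.5 h, 65, 62 and 74 after 1 h, 37, 28 and 24 after 2 h, and 36, 25 and 17 after 4 h of LPS. The 1 h libraries lay above all other LPS and untreated libraries, and the other times overlapped the untreated ones. The rise at 1 h was 2.64-fold (log2 fold change 1.38, SE 0.27, adjusted p = 0.000362), and from 1 to 2 h the level fell 2.26-fold (log2 difference -1.17, adjusted p = 0.00219). At 0.5, 2 and 4 h the log2 fold changes were 0.23 (95% interval -0.34 to 0.80), 0.21 (95% interval -0.36 to 0.78) and -0.01 (95% interval -0.58 to 0.56). With equal totals the values at 0.5 and 2 h turned to -0.26 and -0.42, and with median-of-ratios rescaling that at 4 h turned to 0.22, none of them called. Under IL-4 it read 14, 15 and 14 after 0.5 h, 20, 21 and 17 after 1 h, 21, 14 and 14 after 2 h, and 27, 40 and 29 after 4 h. It was 1.77-fold lower at 0.5 h (log2 fold change -0.77, SE 0.21, adjusted p = 0.0233), without overlap, and 1.55-fold lower at 2 h (log2 fold change -0.61, SE 0.21, adjusted p = 0.0451), where 1 library tied with the lowest untreated one. The call at 0.5 h was lost without replicate 1, 2 or 3 (adjusted p = 0.0644, 0.217 and 0.15), and that at 2 h without replicate 2 or 3 (adjusted p = 0.386 and 0.214). The 2 h call was also lost with no filter on low values (adjusted p = 0.0649) and with all libraries in the fit (adjusted p = 0.0768).

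The promoter table held windows for 9 of the 10 members, 14 windows in all. Of the 14, 9 had no match on either strand to the motifs searched. These were the AP-1, kappaB, CRE (TGACGTCA), STAT (TTCNNNGAA) and STAT6 (the same arms 1 base farther apart) consensus. Also searched was a 10-base arm of the p53 site, not the whole site. Beside the A1 windows, the matches were to the kappaB consensus, in 1 of the 3 windows of Bbc3 and in 1 of the 3 windows of Bcl2l1. They are printed with the match in capitals (GRCm38.p6), where the Bbc3 capitals cover overlapping matches.
Bbc3, chr7:16309333-16309582, plus strand: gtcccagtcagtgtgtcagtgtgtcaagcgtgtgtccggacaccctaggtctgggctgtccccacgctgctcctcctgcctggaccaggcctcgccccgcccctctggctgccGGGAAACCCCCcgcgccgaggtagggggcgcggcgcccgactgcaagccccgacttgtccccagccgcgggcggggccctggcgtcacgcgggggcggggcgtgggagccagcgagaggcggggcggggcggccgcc
Bcl2l1, chr2:152830718-152830967, minus strand: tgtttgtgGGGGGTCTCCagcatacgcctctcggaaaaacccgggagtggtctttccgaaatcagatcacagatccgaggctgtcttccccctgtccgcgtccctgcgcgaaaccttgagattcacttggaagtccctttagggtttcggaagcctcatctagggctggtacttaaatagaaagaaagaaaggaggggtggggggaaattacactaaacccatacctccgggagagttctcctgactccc
The match starts 137 bases before the annotated start in Bbc3. In Bcl2l1 it starts 242 bases before an annotated start at chr2:152830717, which lies within the span of the gene. The window before the outermost start of Bcl2l1, at chr2:152831728, held no match. CRE was found in 1.55%, STAT in 7.02%, STAT6 in 5.85% and the 10-base arm of the p53 site in 7.13% of all windows. That these letters are not in a window says nothing of the factors themselves. A link between a match and the response of a gene was not tested. Bbc3 lies at chr7:16309583-16318334 on the plus strand.

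Pmaip1, which encodes NOXA, rose early and briefly under LPS from a very low level. It read 5, 6 and 12 in untreated libraries, then 92, 79 and 84 after 0.5 h, 31, 22 and 21 after 1 h, 9, 9 and 2 after 2 h, and 9, 6 and 4 after 4 h of LPS. The libraries at 0.5 and 1 h lay above the untreated ones and did not overlap each other, and those at 2 and 4 h overlapped the untreated ones. The rise was 11.1-fold at 0.5 h (log2 fold change 3.39, SE 0.44, adjusted p = 1.19e-05) and 3.22-fold at 1 h (log2 fold change 1.63, SE 0.44, adjusted p = 0.00452). The 1 h call was lost without replicate 2 (adjusted p = 0.061). From 0.5 to 2 h the level fell 12.8-fold (log2 difference -3.68, adjusted p = 2.76e-06). Under IL-4 it read 8, 8 and 5 after 0.5 h, 5, 1 and 4 after 1 h, 2, 1 and 2 after 2 h, and 6, 3 and 6 after 4 h. At 2 h of IL-4 all 3 libraries lay below the untreated ones (log2 fold change -1.64, SE 0.43, adjusted p = 0.0108), a call that was lost without replicate 3 (adjusted p = 0.146). Those libraries read under the floor of 3 normalised read counts used here, so the size of that fall is uncertain. At 1 h the value was -1.06 (adjusted p = 0.101, and 0.0465 with the replicate block), and -1.59 without replicate 1 (adjusted p = 0.046).

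Bid, whose product links caspase-8 to the mitochondria once it is cleaved, was the 1 member lower than untreated at 0.5 h of LPS. It read 83, 84 and 107 in untreated libraries, and 37, 42 and 41 after 0.5 h, 54, 62 and 63 after 1 h, 97, 91 and 98 after 2 h, and 120, 114 and 112 after 4 h of LPS. The libraries at 0.5 and 1 h lay below the untreated ones, those at 2 h overlapped them, and those at 4 h lay above them. Bid was 2.28-fold lower at 0.5 h (log2 fold change -1.16, SE 0.14, adjusted p = 7.48e-06) and 1.53-fold lower at 1 h (log2 fold change -0.60, SE 0.14, adjusted p = 0.002). The 1 h call was lost without replicate 3 (adjusted p = 0.0587) and with the libraries rescaled on the median of ratios (adjusted p = 0.0531). At 2 h the value was 0.07 (adjusted p = 0.686), and with equal totals Bid was lower there (-0.58, adjusted p = 0.00201). It rose 2.88-fold from 0.5 to 4 h (log2 difference 1.51, adjusted p = 2.19e-07). At 4 h it was 1.26-fold higher than untreated (log2 fold change 0.34, SE 0.14, adjusted p = 0.0491), but -0.26 on the log2 scale with equal totals, and that call was lost without replicate 1, 2 or 3 (adjusted p = 0.18, 0.286 and 0.0775). Under IL-4 Bid ranged from 63 to 94 and was not called over the course (adjusted p = 0.233), with log2 fold changes from -0.34 at 4 h (95% interval -0.66 to -0.02) to -0.08 at 1 h (95% interval -0.40 to 0.24). The 4 h value was called with median-of-ratios rescaling (-0.39, adjusted p = 0.0455). It lies at chr6:120893119-120916824 on the minus strand and overlaps the pseudogene Gm17812, which read at most 7.

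**Figure D3:**
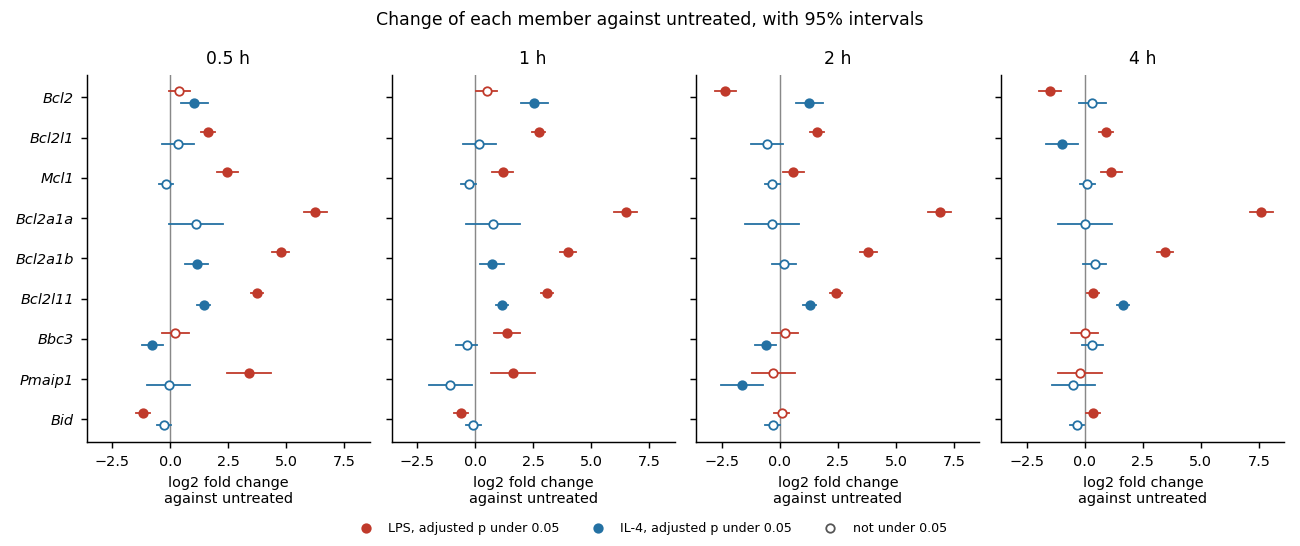
Log2 fold change against untreated (horizontal axis) of the 9 tested members (rows) with a panel for each time after LPS (red) or IL-4 (blue), with 95% intervals as lines and open circles where the adjusted p was not under 0.05. Bcl2 lies at -2.35 under LPS and 1.26 under IL-4 at 2 h, and Bcl2a1a and Bcl2a1b lie farthest to the right under LPS.

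The direct comparison set LPS against IL-4 at the same time. The untreated libraries entered its estimate of the spread but not the differences. Among the members counted here, Bcl2a1a and Pmaip1 passed the filter through their LPS libraries, so the counts are a description. All 9 tested members differed at 0.5 h, 7 of them higher under LPS and 2 lower, where 18.0% of all tested genes were higher and 35.8% lower. All 9 differed at 1 h, 7 higher and 2 lower, against 24.0% and 40.5%. All 9 differed at 2 h, 8 higher and 1 lower, against 26.4% and 42.3%, and with equal totals the count at 2 h was 5. At 4 h 7 differed, 5 higher and 2 lower, against 26.1% and 41.9%. With equal totals the shares of all tested genes were 11.9% and 50.3%, 15.8% and 55.1%, 17.4% and 60.0%, and 17.7% and 60.4% at the 4 times, and the members split 7 to 2, 7 to 2, 4 to 1 and 4 to 3. Rescaled on the median of ratios the shares were 25.3% and 27.8%, 31.2% and 32.9%, 32.3% and 35.0%, and 32.0% and 33.6%, and the members split 7 to 1, 7 to 1, 8 to 1 and 5 to 2.

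Bcl2 was lower under LPS than under IL-4 at all 4 times. The difference widened from -0.65 at 0.5 h (SE 0.26, adjusted p = 0.0364) to -2.07 at 1 h and -3.61 at 2 h (SE 0.26, adjusted p = 1.06e-11), a 12.6-fold lower level. At 0.5 h the call was lost without replicate 2 (adjusted p = 0.261) or 3 (adjusted p = 0.166) and with median-of-ratios rescaling (adjusted p = 0.239). That call was also lost with no filter on low values (adjusted p = 0.0624) and without the mean-variance trend (adjusted p = 0.0511). Bcl2l1 was higher under LPS at all 4 times, by 5.74-fold at 1 h (log2 difference 2.55, SE 0.26, adjusted p = 1.1e-08) and 3.36-fold at 4 h (log2 difference 1.88, SE 0.26, adjusted p = 1.05e-06). Mcl1 was 6.43-fold higher under LPS at 0.5 h (log2 difference 2.65, SE 0.19, adjusted p = 3.4e-11) and 2.04-fold at 4 h (log2 difference 1.03, SE 0.19, adjusted p = 3.86e-05), and its 2 h difference of 0.91 was 0.28 with equal totals (adjusted p = 0.18). Bcl2a1b was between 8.03-fold (4 h) and 12.4-fold (2 h) higher under LPS. Bcl2a1a was listed at 0 in all 3 libraries at 2 h of IL-4, so its level at 2 h of LPS was at least 49.2-fold higher against a floor of 3 normalised read counts per library.

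Among the BH3-only genes, Bcl2l11 was 4.92-fold higher under LPS at 0.5 h (log2 difference 2.31, SE 0.13, adjusted p = 4.01e-13), and 2.46-fold lower at 4 h (log2 difference -1.30, SE 0.13, adjusted p = 3.26e-09), with no overlap of libraries at either time. Pmaip1 was 12.1-fold higher under LPS at 0.5 h (log2 difference 3.45, SE 0.45, adjusted p = 6.27e-07), and at 4 h the difference was 0.28 (SE 0.45, adjusted p = 0.594, 95% interval -0.64 to 1.20). With equal totals that difference turned to -0.24 (adjusted p = 0.622). Its difference at 2 h (log2 difference 1.35, SE 0.45, adjusted p = 0.00993) was lost without replicate 1 (adjusted p = 0.0542) or 2 (adjusted p = 0.189) and with equal totals (adjusted p = 0.0709). The Pmaip1 libraries at 2 h of IL-4 read 2, 1 and 2, under the floor of 3 normalised read counts. Bbc3 was 3.47-fold higher under LPS at 1 h (log2 difference 1.74, SE 0.24, adjusted p = 1.31e-06). At 2 h its difference of 0.83 was lost without replicate 2 (adjusted p = 0.0726) and with equal totals (adjusted p = 0.41), and at 4 h it was -0.33 (95% interval -0.84 to 0.18), but -0.93 with equal totals (adjusted p = 0.00133) and -0.70 without replicate 1 (adjusted p = 0.0238). Bid was 1.91-fold lower under LPS at 0.5 h (log2 difference -0.90, SE 0.14, adjusted p = 7.15e-06) and 1.60-fold higher at 4 h (log2 difference 0.68, SE 0.14, adjusted p = 0.000146), where equal totals gave 0.06 (adjusted p = 0.675). At 2 h Bid was 1.31-fold higher under LPS (log2 difference 0.39, SE 0.14, adjusted p = 0.0169), but -0.24 with equal totals, and the call was lost without replicate 2 (adjusted p = 0.0926) or 3 (adjusted p = 0.0917).

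**Figure D4:**
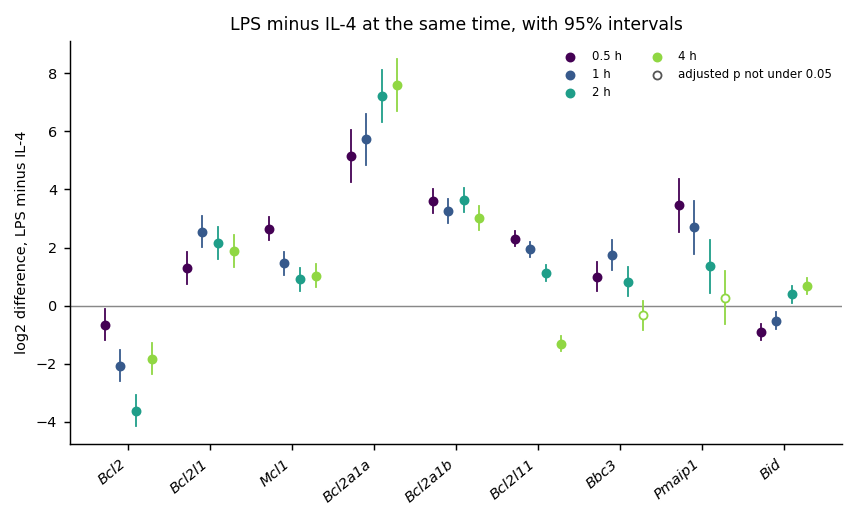
Log2 difference between LPS and IL-4 at the same time (vertical axis) for the 9 tested members (horizontal axis), with 95% intervals and 1 colour per time, and open circles where the adjusted p was not under 0.05. Bcl2 lies below 0 at all 4 times, Bcl2l11 crosses from 2.31 at 0.5 h to -1.30 at 4 h, and Bid crosses the other way from -0.90 to 0.68.

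Levels can be compared between genes only per length. Per kilobase of annotated gene span, which suits RNA that still holds its introns, Mcl1 was the highest member in untreated cells (91.6 ± 16.4, SD, n = 3). It was followed by Bcl2l11 (10.1 ± 0.681) and Bcl2a1b (10.1 ± 2.65), which did not differ beyond their spread. Next came Bcl2l1 (4.88 ± 0.439) and Bid (3.85 ± 0.573), whose ranges touched, and Bbc3 (2.89 ± 0.515), below both. Bcl2 (1.24 ± 0.192) and Pmaip1 (1.10 ± 0.544) overlapped and came last before Bcl2a1a and Bcl2a1d. At 0.5 h of LPS the order by span was Mcl1 (517 ± 145), Bcl2a1b (273 ± 45.6) and Bcl2l11 (137 ± 12.5), without overlap, and Bid (1.69 ± 0.112) and Bcl2 (1.62 ± 0.202) overlapped at the bottom of the tested members. At 2 h of LPS, Bcl2a1b (140.2 ± 5.04) and Mcl1 (138 ± 32.8) overlapped at the top. At 4 h of LPS Bcl2a1a (44.4 ± 5.22) ranked 3, above Bcl2l11 (12.9 ± 1.66).

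Under IL-4 the order of the means by span stayed Mcl1, Bcl2l11 and Bcl2a1b at all 4 times, with Mcl1 between 73.2 ± 14.2 at 2 h and 97.9 ± 11.7 at 4 h per kilobase. At 0.5 h of IL-4, Bcl2l11 (27.8 ± 5.11) and Bcl2a1b (22.3 ± 4.56) overlapped. Bcl2 ranked 4 at 1 h of IL-4 (7.30 ± 0.304), where it overlapped Bcl2l1 (5.67 ± 1.43), and 6 or 7 at the other times. Per kilobase of annotated cDNA the order was different, because Bcl2 and Bcl2l1 are mostly intron and Mcl1 mostly exon (annotated cDNA was 4.17% of the span of Bcl2 and 78.2% of that of Mcl1). On that scale untreated Mcl1 (117 ± 20.9), Bcl2a1b (113 ± 29.7) and Bcl2l1 (109 ± 9.85) overlapped at the top, and at 0.5 h of LPS Bcl2a1b (3066 ± 512) stood above Bcl2l11 (701 ± 63.9) and Mcl1 (661 ± 185), which overlapped.

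The course of each member with a mean of at least 50 was compared with that of all other tested genes over the 9 group means, by Pearson's r of log2 values (n = 9 groups that share the untreated group, given as a description). The genes most like Bcl2 were Ptbp2 (r = 0.975), Rabep1 (0.963) and Ocrl (0.953). Those most like Bcl2l1 were Slc49a4 (0.994), Zfand3 (0.973) and Heca (0.971), and those most like Mcl1 were Spty2d1 (0.989), Hsp90ab1 (0.983) and Id2 (0.982). Bcl2a1b was most like Pde4b (0.995), Tnfaip3 (0.989) and Gm14023 (0.988), and Bcl2a1a most like Gpr84 (0.996), Gm34643 (0.995) and Socs3 (0.995). Bcl2l11 had the weakest neighbours, U2af2 (0.939), Mtrex (0.929) and Olr1 (0.926), and Bid was most like Ppp2r3c (0.969), Nkiras2 (0.964) and Chpt1 (0.963). Among the members, Bcl2a1a and Bcl2a1b had r = 0.958, Mcl1 and Bcl2a1b 0.887, Bcl2l1 and Bcl2a1b 0.887, and Bcl2l11 and Bid -0.808. Bcl2 had a negative r with each of the other 6 members compared, from -0.648 with Bcl2a1a to -0.02 with Bcl2l11.

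The rest of the pathway was read from 4 lists, the other BCL-2 family genes, the mitochondrial steps and caspases, p53 targets, and regulators of MCL-1 and BIM turnover. The family list also holds Bnip2, which is named for binding BCL-2 and is counted there by name only. Of the list genes named below, Casp6 and Rps6ka1 each overlap 2 other annotated genes, and Apaf1, Dram1, Gsk3a and Bcl2l14 each overlap 1. The part of those overlapping genes in the values was not tested. Of 17 other BCL-2 family genes 12 were tested, and 10 changed over the LPS course, 2 mainly higher and 8 mainly lower (4 and 6 with median-of-ratios rescaling, 1 and 10 with equal totals), where 87.6% of all tested genes changed. The median of their log2 fold changes was -1.44 at 0.5 h and -0.29 at 4 h, where the median over all tested genes was -0.24 and -0.26. Each LPS call that met the naming rule in the 4 lists held its direction at the time given in every alternative tried, while of the 12 IL-4 calls Rps6ka1 was the 1 that held without each replicate in turn. Bmf, a BH3-only gene, fell from 95 ± 9.64 to 2.33 ± 1.53 at 2 h (log2 fold change -4.94, course adjusted p = 3.08e-08). Bnip3l, a mitochondrial receptor for autophagy, fell from 78.7 ± 5.51 to 12.3 ± 2.31 at 2 h (log2 fold change -2.59, course adjusted p = 3.08e-07), and Bcl2l13 fell from 96.3 ± 14.2 to 54.7 ± 1.53 at 2 h (log2 fold change -0.80, course adjusted p = 4.25e-05). The 2 that rose, named after their values were seen, were Bnip2, which went from 255 ± 22.1 to 346 ± 28.9 at 4 h (log2 fold change 0.44, course adjusted p = 0.00106) but was not among the higher genes with equal totals, and Bcl2l14, which was listed at 0 in the untreated libraries and read 17 ± 5.57 at 4 h (SD, n = 3). Under IL-4, 4 of the 12 changed, where 40.3% of all tested genes did. Bmf fell from 95 ± 9.64 to 36.3 ± 18.8 at 0.5 h (log2 fold change -1.47, course adjusted p = 0.0149) and Bnip3l from 78.7 ± 5.51 to 46.7 ± 5.13 at 0.5 h (log2 fold change -0.74, course adjusted p = 0.0234). Bax, a pore former, rose from 63 ± 4.58 to 94.3 ± 10.0 at 4 h (log2 fold change 0.57, course adjusted p = 0.0475), and Bcl2l13, named after its values were seen, rose from 96.3 ± 14.2 to 131 ± 10.6 at 1 h (log2 fold change 0.45, course adjusted p = 0.00778). The split was 1 to 3 with median-of-ratios rescaling, where Bax was not called. With the replicate block 7 of the 12 changed under IL-4, where 53.3% of all tested genes did.

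Of the 20 genes of the mitochondrial steps and caspases 19 were tested, and 18 changed under LPS, near the 87.6% of all tested genes, 7 mainly higher and 11 mainly lower (9 and 9 with median-of-ratios rescaling, 5 and 14 with equal totals). Their median log2 fold change went from -0.91 at 0.5 h to 0.38 at 4 h. Cflar, which encodes the caspase-8 inhibitor c-FLIP, rose from 392 ± 32.1 to 4848 ± 268 at 2 h (log2 fold change 3.63, course adjusted p = 4.33e-13). Under IL-4, 11 of 19 changed, where 40.3% of all tested genes did, 6 mainly higher and 5 mainly lower. Casp6, an executioner caspase, rose from 28 ± 5.29 to 109 ± 24.2 at 1 h (log2 fold change 1.92, course adjusted p = 0.000211). Casp6 overlaps 2 other annotated genes, and whether the counts separated them was not given. Apaf1, the scaffold of the apoptosome, fell from 631 ± 50.2 to 353 ± 60.9 at 4 h (log2 fold change -0.85, course adjusted p = 0.000566), and Aifm1 fell from 84.7 ± 5.51 to 55.3 ± 6.66 at 0.5 h (log2 fold change -0.61, course adjusted p = 0.00406). The IL-4 count was 2 without replicate 2 and 3 without replicate 3, where 16.1% and 15.6% of all tested genes changed.

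Of 19 p53 targets 15 were tested, and 14 changed under LPS, near the 87.6% of all tested genes, 7 mainly higher and 7 mainly lower. Cdkn1a, the cell cycle inhibitor p21, rose from 99.3 ± 34.3 to 1505 ± 99 at 0.5 h (log2 fold change 3.96, course adjusted p = 3.7e-09), and Dram1, a lysosomal protein, rose from 58.7 ± 17.9 to 1496 ± 153 at 4 h (log2 fold change 4.69, course adjusted p = 3.81e-10). Trp53inp1 fell from 185 ± 35.2 to 6.33 ± 3.06 at 2 h (log2 fold change -4.74, course adjusted p = 1.62e-08). Under IL-4, 10 of the 15 changed, where 40.3% of all tested genes did, 3 mainly higher and 7 mainly lower, with Cdkn1a rising from 99.3 ± 34.3 to 310 ± 50.7 at 2 h (log2 fold change 1.67, course adjusted p = 0.000252), and with Trp53inp1 and Dram1 falling from 185 ± 35.2 to 65 ± 11.5 at 0.5 h (log2 fold change -1.49, course adjusted p = 0.000356) and from 58.7 ± 17.9 to 23.3 ± 6.66 at 2 h (log2 fold change -1.28, course adjusted p = 0.0146). The IL-4 count was 5 without replicate 2 and 6 without replicate 3, where 16.1% and 15.6% of all tested genes changed. Bbc3 and Pmaip1, which are p53 targets too, are counted among the members only.

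Of 14 regulators of MCL-1 and BIM turnover 13 were tested, and all 13 changed under LPS, where 87.6% of all tested genes did, 5 mainly higher and 8 mainly lower (2 and 11 with equal totals). Marchf5, a ubiquitin ligase of the mitochondrial membrane, rose from 74 ± 10.5 to 798 ± 21.2 at 2 h (log2 fold change 3.42, course adjusted p = 4.4e-11). Rps6ka1, a kinase of the ERK pathway, fell from 215 ± 18.7 to 48 ± 10.5 at 2 h (log2 fold change -2.16, course adjusted p = 1.56e-06), and Mapk3, which encodes ERK1, fell from 78.7 ± 9.07 to 22 ± 5.57 at 4 h (log2 fold change -1.81, course adjusted p = 2.64e-06). Under IL-4, 8 of 13 changed, where 40.3% of all tested genes did, 4 mainly higher and 4 mainly lower. Rps6ka1 fell from 215 ± 18.7 to 114 ± 10.4 at 0.5 h (log2 fold change -0.91, course adjusted p = 0.000279) and Gsk3a from 50.3 ± 2.52 to 33 ± 5.57 at 0.5 h (log2 fold change -0.61, course adjusted p = 0.0137). The IL-4 count was 1 without replicate 2 and 2 without replicate 3, where 16.1% and 15.6% of all tested genes changed.

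**Figure D5:**
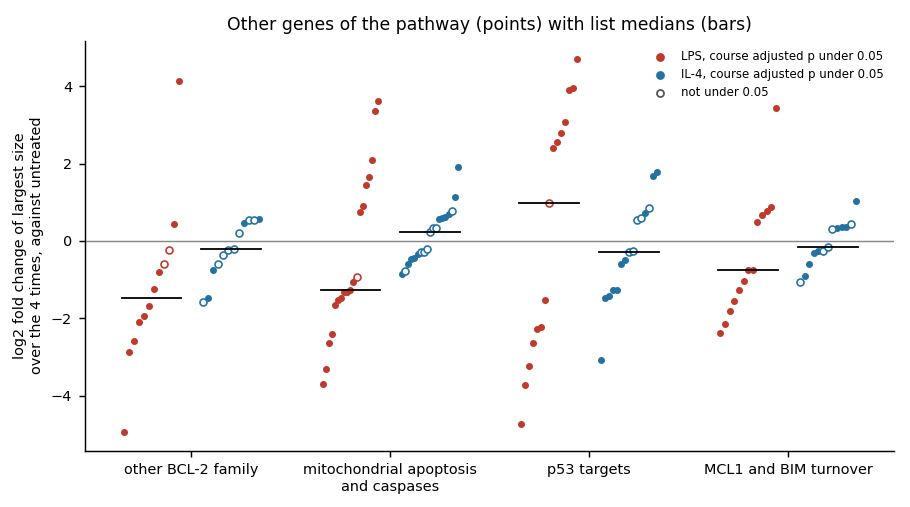
Largest log2 fold change against untreated in either direction at any of the 4 times (vertical axis) for the tested genes (points) of the 4 pathway lists (horizontal axis) under LPS (red) and IL-4 (blue), with open points where the course adjusted p was not under 0.05 and bars for list medians. LPS values run from -4.94 (Bmf) to 4.69 (Dram1), and IL-4 values from -3.08 (Btg2, named after its values were seen) to 1.92 (Casp6).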

How the data were processed

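Chromatin-associated RNA was measured in 27 libraries of BMDM. The authors reverse-transcribed it with random primers (Smart-seq2), sequenced it as 76-base single-end reads, aligned it with TopHat2 (2.1.1) to mm10 and removed reads with several hits. They deposited normalised read counts, rounded to whole numbers (a score with no fixed range here), per RefSeq gene of GRCm38.p6, scaled on genes that did not vary. The submitters' processing notes also name bedtools (2.29.2), DESeq2 and R (3.6.2). The use of strand in counting and the number of reads per library were not given in the sources used here, so overlapping genes cannot be told apart and no depth-based interval is given.

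Groups and replicate numbers came from the labels. The log2(value + 1) of each gene entered limma (3.58.1, R 4.3.3, mean-variance trend on) over the 13901 genes with at least 10 in at least 3 libraries. The p-values were adjusted by Benjamini-Hochberg over all of these genes, with a threshold of 0.05, and every adjusted p given is from limma and two-sided (F tests for courses). Each course was fitted with the 3 untreated and its 12 stimulated libraries, and LPS minus IL-4 on all 27. Fold values are ratios of group means, and log2 fold changes are on the log2(value + 1) scale, which understates changes of low genes. The script was tested on simulated data with known changes.

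The replicate numbers were not in the fit. They pair the samples: in 6827 genes all 108 pairs of groups with the same number had a correlation of their deviations over 0.1 (0.163 to 0.851, median 0.464). The median for different numbers was -0.438. Deviations were taken from the mean of each group, so that negative value follows from the positive ones and is no separate evidence. Values with the number as a block are given where they change a call.

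The members, the 4 pathway lists, the marker lists and the tests were chosen with earlier results of these data known. Named list genes are, per list and stimulus, the 3 with the largest change among those called over the course, with a mean of at least 50 in the higher group and no overlap with untreated, and some that met this rule are not reported here. Genes of like course are the 3 with the highest r among genes with a mean of at least 50. Alternatives were another pseudocount, filter, scaling, choice of samples or block, no trend, and leaving out each replicate. Promoter windows came from the RefSeq table and A1 transcripts from GENCODE M21.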

Additional observations from a re-analysis of the deposited data

Results flagged for a closer look

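Bcl2 lay on opposite sides of untreated at 2 h, at 1.26 on the log2 scale under IL-4 and at -2.35 under LPS. The direct difference, LPS minus IL-4, was -3.61 (SE 0.26, limma adjusted p = 1.06e-11), with LPS lower in all 3 libraries than in any IL-4 library. Bcl2l1 did so at 4 h in the other direction, at -0.98 under IL-4 and 0.90 under LPS, with a difference of 1.88 (SE 0.26, limma adjusted p = 1.05e-06). The IL-4 side of that pair was lost without replicate 2 or 3, and the LPS side with equal totals.

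Bid crossed untreated within the LPS course, from -1.16 at 0.5 h to 0.34 at 4 h, a difference of 1.51 (SE 0.14, limma adjusted p = 2.19e-07). From -0.60 at 1 h to 0.34 at 4 h the difference was 0.94 (SE 0.14, limma adjusted p = 5.04e-05). The value at 4 h was -0.26 with equal totals and lost its call when each replicate in turn was left out. With that scaling Bid did not cross untreated. The libraries at 4 h lay above those at 0.5 and 1 h without overlap.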

How the results depend on the processing

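Of 120 member log2 differences (9 members and the A1 sum, against untreated and between stimuli), 85 were called, and 62 of these kept their call in every alternative run. Without a replicate 19 were lost. With the replicate block 6 calls were gained and no other changed. Of the members, 6 changed over the IL-4 course. The count was 4 with no filter on low values and 2 to 7 when leaving out a replicate. It was 2 with replicates 2 and 3 averaged, an alternative chosen after seeing the data. Of all tested genes, the shares called over the IL-4 course were 47.1%, 16.1% and 15.6% without replicate 1, 2 and 3, and 18.0% with averaging. They were 15.9% with no filter, 53.3% with the replicate block, 58.4% with a mean of at least 50 and 39.0% without the trend. Over the LPS course the share was 95.3% with a mean of at least 50. At 2 h, 9 members differed between the stimuli, and 5 with equal totals. Of the list genes changed over the LPS course, a mean of at least 50 left 2 other BCL-2 family genes, 10 of the mitochondrial list and 9 p53 targets, since fewer genes were tested. Over the IL-4 course, other BCL-2 family genes numbered 2 with no filter, 7 with the replicate block, 0 with replicates 2 and 3 averaged by limma (1 at an unadjusted p under 0.05), and 0 to 4 when leaving out a replicate (2 and 1 at an unadjusted p under 0.05 without replicate 2 and 3). The mitochondrial list had 7 with a mean of at least 50, 4 with averaging and 2 to 9 when leaving out a replicate. The p53 targets had 5 to 11 when leaving out a replicate. The turnover list had 4 without the trend, 2 with averaging and 1 to 7 when leaving out a replicate. Equal totals turned 10 log2 values. Against untreated under LPS these were Bbc3 (-0.26) and Bcl2 (-0.12) at 0.5 h, Bcl2 (-0.085) at 1 h, Bbc3 (-0.42), Bid (-0.58, adjusted p = 0.00201 by limma) and Mcl1 (-0.077) at 2 h, and Bcl2l11 (-0.27) and Bid (-0.26) at 4 h. Between stimuli they were Bid at 2 h (-0.24) and Pmaip1 at 4 h (-0.24). Of these, 4 had been called as deposited. Median-of-ratios rescaling turned Bbc3 at 4 h of LPS (0.22). Averaging turned Pmaip1 at 2 h of LPS (0.058) and 0.5 h of IL-4 (0.085) and Bbc3 at 4 h of LPS (0.12). Leaving out a replicate moved uncalled values across 0, with ranges of -0.0057 to 0.17 for Bid at 2 h of LPS, -0.80 to 0.63 and -0.69 to 0.37 for Pmaip1 at 2 and 4 h of LPS, -0.27 to 0.13 for Bbc3 at 4 h of LPS, -0.38 to 0.47 for Pmaip1 at 0.5 h of IL-4, -0.20 to 0.072 for Bid at 1 h of IL-4, and -0.16 to 0.59 for Bcl2 at 4 h of IL-4. The cause of the shifts with scaling or a left-out replicate was not tested. The reads behind each value are not known, so what depth limits could not be measured.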
